A study of Mus musculus with 4 samples.

Results

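The genes described here are 6 genes of the fetal haematopoietic stem cell (HSC) programme, Lin28b, Hmga2, Igf2bp2, Igf2bp3, Sox17 and Arid3a, followed through the topologically associating domains (TADs) that hold them. A TAD is a stretch of chromosome whose parts touch each other more often than they touch the flanking stretches. The genes were chosen by name, with earlier results of these data known. Each was placed by an approximate interval on the mouse build mm9, given in steps of 10 kb. Each interval fell in 1 TAD of each list, so the genes used 6 of 2318 fetal TADs and 6 of 2310 adult TADs.

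TADs came from Hi-C, an assay that ligates and sequences DNA ends lying near each other in fixed nuclei. The fetal group was HSCs of the liver at embryonic day 14.5, and the adult group was HSCs of the bone marrow at 6 to 8 weeks, with 2 samples each. All animals were of the strain B6129SF1, with no treatment or mutation named. Cells of both tissues were sorted as Lin-, Sca1+, cKit+ and CD135-, a gate that the labels narrow by no further marker, so other multipotent progenitors of that phenotype may be included. The labels name 1 TAD list for both samples of a group. No value below therefore has a replicate error or a p-value, the depth behind each list is unknown, and the sorted cells could not be checked against marker genes.

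Fetal liver HSCs divide actively and expand, while adult marrow HSCs are mostly quiescent, and the 6 genes are known for activity in the fetal state. Lin28b encodes an RNA-binding protein that blocks maturation of let-7 microRNAs and, when forced on in adult progenitors, restores fetal-type blood formation. Transcripts of Hmga2, the Igf2bp genes and Arid3a are among those that let-7 represses, so these genes are often described as one axis. Sox17 encodes a transcription factor needed by fetal and neonatal HSCs. Expression was not measured in these files.

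The genes fell into 2 sets of 3. Lin28b, Hmga2 and Arid3a lay in fetal and adult TADs that matched at both ends within 40 kb, as did those of 63.1% of all 10 kb bins in a TAD of both lists. Igf2bp2, Igf2bp3 and Sox17 lay in long fetal TADs whose outer ends recurred in the adult list, but which an additional adult boundary divided, as it did at 11.8% of bins. That boundary was 95, 105 and 175 kb from the 3 gene intervals. The division of TADs was defined after the TADs of these genes were seen, so its share of members is description only. At Sox17 the lower outer end is the start of the chromosome's first TAD, so only the upper one compares boundaries. A fetal boundary divided the adult TAD of 0 of 6 members, against 9.75% of bins, which is too close to the background to be read for 6 genes.

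**Figure D1:**
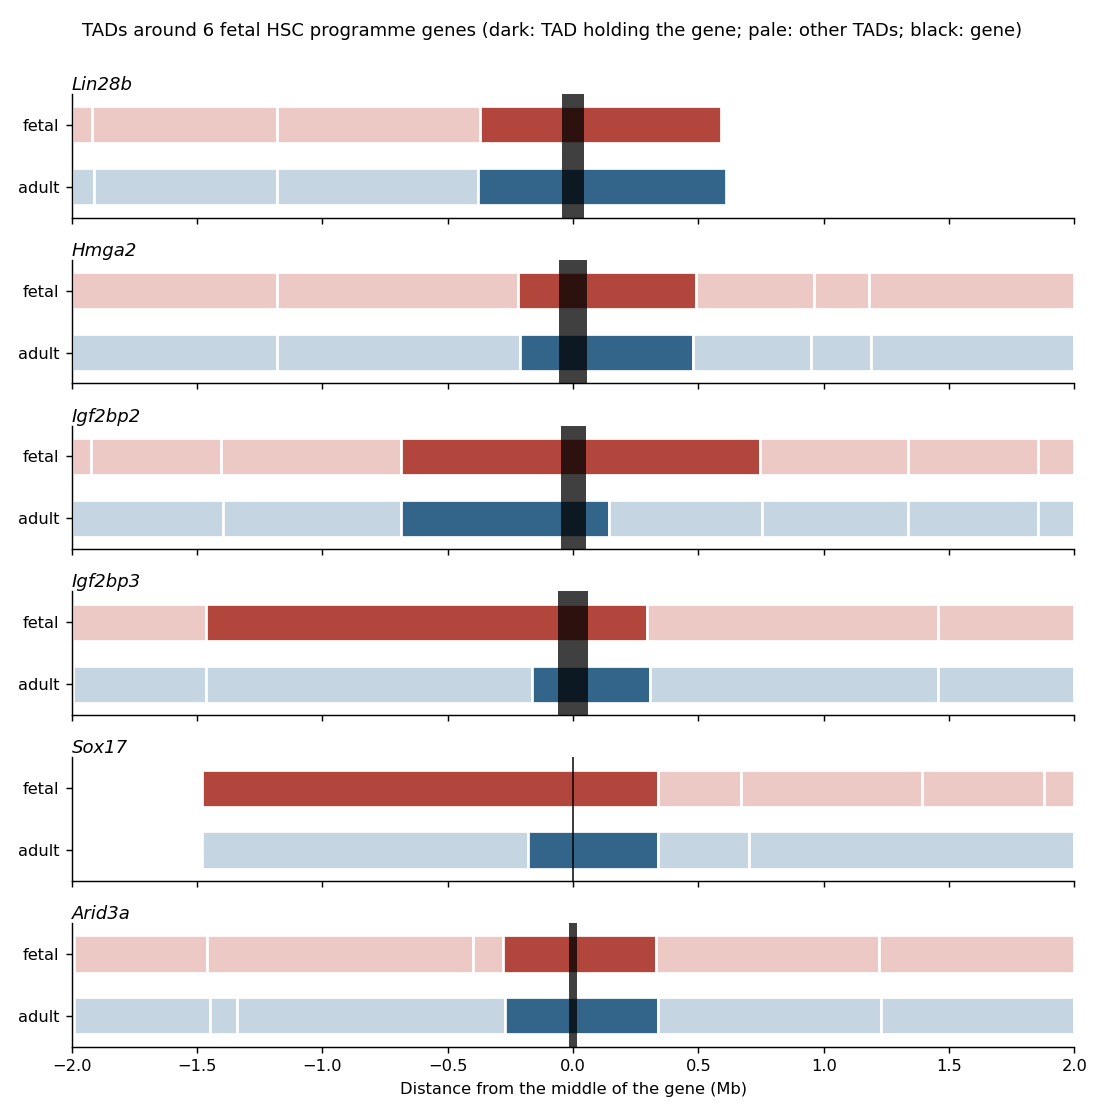
Each panel shows the TADs of the fetal list (red, upper row) and the adult list (blue, lower row) from 2 Mb below to 2 Mb above the middle of 1 gene, with distance in Mb on the horizontal axis. Dark bars hold the gene, pale bars are other TADs, the black band is the approximate gene interval, and white space has no TAD. The dark bars of Igf2bp2, Igf2bp3 and Sox17 are shorter in the adult row (830, 470 and 520 kb against 1430, 1760 and 1820 kb), and those of the other 3 genes have nearly the same ends in both rows.

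Among the RNA-binding proteins, Lin28b (chromosome 10, about 45.10 to 45.19 Mb) lay in the fetal TAD chr10:44775001-45735000, of 960 kb. The adult TAD was chr10:44765001-45755000, of 990 kb. The lower ends differed by 10 kb and the upper ends by 20 kb, which is 1 and 2 steps of the 10 kb grid on which TAD ends lie. The pair overlapped by 97.0% of the longer TAD. The upper end of this TAD bordered a long stretch without any TAD in both lists, 4570 kb by the fetal list and 4510 kb by the adult list, so Lin28b had a neighbouring TAD on its lower side only. That neighbour spanned 810 kb (fetal) and 800 kb (adult) and started at 43.965 Mb in both.

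Igf2bp2 encodes a protein that binds Igf2 and other messenger RNAs. Its interval on chromosome 16, about 22.06 to 22.16 Mb, lay near the middle of the fetal TAD chr16:21425001-22855000, of 1430 kb. The adult TAD was chr16:21425001-22255000, of 830 kb, with the same lower end. The fetal upper end at 22.855 Mb had an adult counterpart at 22.865 Mb, where the next adult TAD, of 610 kb, ended. The adult boundary at 22.255 Mb between them was 600 kb from the nearest fetal boundary and 95 kb above the gene interval. The middle of Igf2bp2 thus stood 47.9% of the way along the fetal TAD and 82.5% of the way along the adult one, and its nearest boundary was 635 kb away by the fetal list and 95 kb by the adult list. The fetal and adult TAD overlapped by 58.0% of the fetal length.

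Igf2bp3 encodes a paralogue of Igf2bp2 that is expressed mainly in fetal tissues. Its interval on chromosome 6, about 49.04 to 49.16 Mb, lay in the fetal TAD chr6:47635001-49395000, of 1760 kb. The adult TAD was chr6:48935001-49405000, of 470 kb, and was the shortest of the 12 TADs holding a member. The fetal lower end at 47.635 Mb was also an adult boundary, from which an adult TAD of 1300 kb reached to 48.935 Mb. That last position was 460 kb from the nearest fetal boundary and 105 kb below the gene interval. The upper ends differed by 10 kb. Against Igf2bp2, the additional boundary lay on the other side of the gene by coordinate and left the gene in the shorter piece rather than the longer one.

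Of the genes for proteins that bind DNA, Hmga2 encodes a chromatin protein with AT hooks that promotes self-renewal of fetal HSCs. Its interval on chromosome 10, about 119.80 to 119.91 Mb, lay in the fetal TAD chr10:119635001-120345000, of 710 kb, and in the adult TAD chr10:119645001-120335000, of 690 kb. Both ends differed by 10 kb, inwards in the adult list. The TADs on its lower and upper side spanned 960 and 470 kb (fetal) and 970 and 470 kb (adult). All 5 boundaries within 2 Mb of Hmga2 had a partner in the other list, where over all boundaries 83.4% of fetal and 83.5% of adult ones did.

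Arid3a encodes a factor with an ARID DNA-binding domain that acts in early B lymphocyte development. Its interval on chromosome 10, about 79.39 to 79.42 Mb, lay in TADs of 610 kb in both lists, chr10:79125001-79735000 in the fetal and chr10:79135001-79745000 in the adult list. Each adult end lay 10 kb above the fetal one. Below it the lists differed. The fetal list had a TAD of 120 kb next to that of Arid3a and one of 1060 kb before it, while the adult list had a TAD of 1070 kb next to it and one of 110 kb before that. The boundaries involved, the fetal one at 79.005 Mb and the adult one at 78.065 Mb, were 130 and 120 kb from the nearest boundary of the other list. They cut a short TAD from opposite ends of nearly the same stretch.

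The interval of Sox17 on chromosome 1, about 4.48 to 4.49 Mb, lay in the fetal TAD chr1:3005001-4825000, of 1820 kb, the longest of the 12. This was the first TAD of the chromosome in the list. The adult TAD was chr1:4305001-4825000, of 520 kb, after an adult TAD of 1300 kb that began at the same position as the fetal one. Both outer ends were at identical positions in the lists, but the lower one is the start of the chromosome's first TAD. The lists share that start on 18 of 20 chromosomes, so only the upper end compares boundaries. The adult boundary at 4.305 Mb was 520 kb from the nearest fetal boundary and 175 kb below the gene. Above Sox17 the order was the opposite, 1385 to 1875 kb away. There 1 adult TAD of 2070 kb faced 3 fetal TADs, of 720, 490 and 870 kb.

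The lengths of the TADs can be read against all positions that lie in a TAD of both lists, taken as 218819 bins of 10 kb. A bin counts a long TAD more often than a short one, as a gene placed at random would, but bins are not genes and are not replicates. The median bin lay in a TAD of 1190 kb in the fetal list (quartiles 760 and 1890) and of 1140 kb in the adult list (730 and 1900). The fetal TADs of Igf2bp2, Igf2bp3 and Sox17 were above that median, and longer than those of 59.9%, 71.1% and 72.8% of bins. Their adult TADs were below it, and longer than those of 31.1%, 5.17% and 9.45% of bins. Fetal lengths were 1.72, 3.74 and 3.50 times the adult lengths for these genes, and 0.97, 1.03 and 1.00 times for Lin28b, Hmga2 and Arid3a. A shorter adult TAD follows where the fetal TAD is divided, so the fall in length at Igf2bp2, Igf2bp3 and Sox17 restates the division. The TADs of Lin28b, Hmga2 and Arid3a were shorter than the median of bins in both lists.

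**Figure D2:**
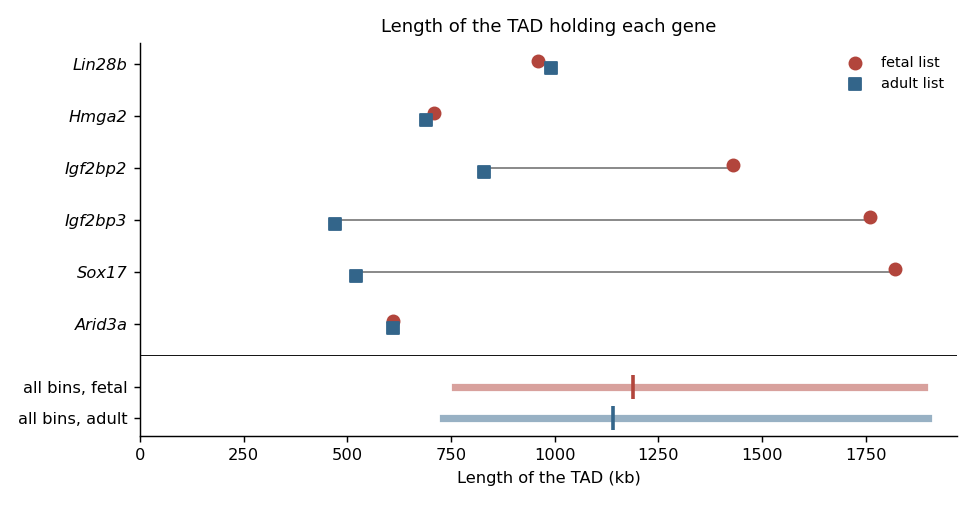
Length in kb of the TAD that holds each gene, with the fetal list as red circles and the adult list as blue squares joined by a line. Below the rule, the thick bars span the quartiles and the ticks mark the medians over all bins (1190 kb fetal, 1140 kb adult). Long lines appear for Igf2bp2, Igf2bp3 and Sox17, with the fetal value the higher in each, as follows from the division of their fetal TADs.

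Of the 12 ends of the fetal TADs holding members, all 12 lay within 40 kb of an adult boundary, 4 at the same position, 7 at 10 kb and 1 at 20 kb. Without the lower end at Sox17, the start of its chromosome's first TAD, 11 of 11 lay within 40 kb and 3 coincided. Over all fetal boundaries 16.6% had no adult boundary within 40 kb. Of the 12 ends of the adult TADs, 9 lay within 40 kb of a fetal boundary and 3 did not, where 16.5% of all adult boundaries did not. With 12 ends per list, the counts of both lists are too close to these shares to be read as a result about the members. The 3 unmatched ends were those beside Igf2bp2, Igf2bp3 and Sox17, at 600, 460 and 520 kb from the nearest fetal boundary. Across the 395 adult boundaries with no fetal partner this distance had a median of 240 kb and quartiles of 90 and 525 kb. All 3 lay above that median, and the one at Igf2bp2 above the upper quartile. The 395 were counted once each, while these 3 were reached through genes, which fall in long TADs more often. The sets are thus unlike, and the larger distances are description only. Each lay inside a fetal TAD, at least 460 kb from its nearer end.

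Both TAD ends matched for 3 of 6 members, against 63.1% of bins. The same 3 members lay in TADs that overlapped by at least 80% of both lengths, against 75.1% of bins. The fetal TAD was divided in the adult list for 3 of 6 members, against 11.8% of bins. A TAD counts as divided if each of its ends had a partner and the partner list had a further boundary between them. That further boundary had to lie over 40 kb from either end. Sox17 is among the 3, though its lower end is the start of the chromosome's first TAD and does not compare boundaries. The adult TAD was divided in the fetal list for 0 of 6 members, against 9.75% of bins. No test was run on these counts, which rest on 6 genes. Division was defined after the TADs of the members were seen, so its excess over bins cannot be read as an unbiased one. The counts of both ends matched, of shared TADs and of divided adult TADs are too close to the shares of bins to be read for 6 genes. The counts of both ends matched, of shared TADs and of divided fetal TADs also rest on the same 3 adult boundaries and are not separate results. The divided fetal TADs of the members were 1430, 1760 and 1820 kb long. These lengths lay within the quartiles of all 158 divided fetal TADs, each counted once, 1120 and 2025 kb. In 143 of those 158 a single boundary made the division, as it did for each of the 3 members.

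The nearest boundary was closer by the adult list where the TAD was divided. For Igf2bp2 the fetal distance was 635 kb and the adult one 95 kb, for Igf2bp3 they were 235 and 105 kb, and for Sox17 335 and 175 kb. For Lin28b they were 325 and 335 kb, for Hmga2 165 and 155 kb, and for Arid3a 265 and 255 kb, each 1 grid step apart. The median over the 6 genes was 295 kb (fetal) and 165 kb (adult), measured from the edges of each interval. Over bins, each taken as 1 point, it was 265 and 255 kb. The like measure for the genes, taken from their midpoints, gave 317.5 kb (fetal) and 195 kb (adult). In the adult list Igf2bp2, Igf2bp3 and Hmga2 were the genes closest to a boundary, and in the fetal list Hmga2 and Igf2bp3. The adult boundary was closer by over 40 kb at 3 of 6 members and at 10.4% of bins. It was farther by over 40 kb at 0 of 6 members and at 8.93% of bins. The 3 members are those with a divided TAD, so this count restates the same adult boundaries. All distances start from intervals given to 10 kb.

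**Figure D3:**
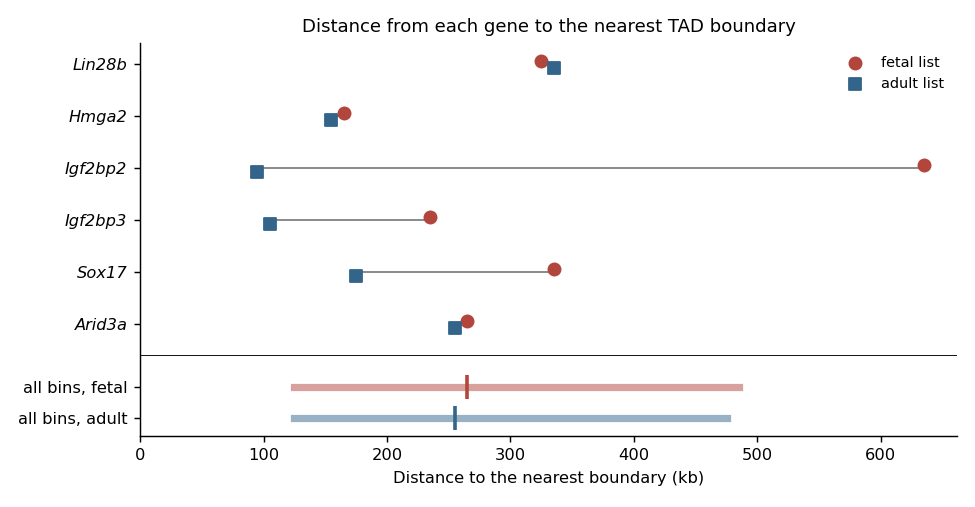
Distance in kb from each gene interval to the nearest TAD boundary, with fetal values as red circles and adult values as blue squares joined by a line. Thick bars and ticks below the rule give the quartiles and medians over all bins (medians 265 kb fetal, 255 kb adult). Bins were measured from a point and genes from the edges of their interval, which makes the gene values somewhat smaller. The adult value lies far to the left of the fetal one for Igf2bp2 (95 against 635 kb), Igf2bp3 (105 against 235 kb) and Sox17 (175 against 335 kb).

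Within 2 Mb on each side of the genes, boundaries had partners about as often as elsewhere. Each list had 31 boundaries there, and 27 in each, or 87.1% (95% exact Clopper-Pearson interval 70.2 to 96.4, counting error only), had a partner within 40 kb, against 83.4% of all fetal and 83.5% of all adult boundaries. That interval treats neighbouring boundaries as independent draws. The matched ones are the same pairs in both lists, so the equal shares are not separate results. Of the 27 fetal ones, 11 coincided with an adult boundary, 14 were 10 kb away and 2 were farther. Around Lin28b and Hmga2 all 4 and all 5 boundaries of each list had a partner, numbers too small to set apart from those shares. Around Igf2bp2 and Arid3a, 1 of 6 in each list had none. Around Igf2bp3, 1 of 6 adult boundaries and 0 of 5 fetal ones had none, and around Sox17, 1 of 4 adult and 2 of 5 fetal ones. The lists thus had 4 unmatched boundaries each at this window. Within 1 Mb 1 of 13 fetal and 3 of 15 adult boundaries were unmatched, and within 3 Mb 5 of 38 and 4 of 37. Within 2 Mb the adult ones were 95, 105, 175 and 1325 kb from the gene, and the fetal ones 385, 1385, 1875 and 1875 kb. The adult ones at 95, 105 and 175 kb are the 3 within 1 Mb. They are also the boundaries that divided the member TADs, so their closeness to the genes restates the division. The fetal one at 20.185 Mb on chromosome 16, in the window of Igf2bp2, divided an adult TAD of 1070 kb, so near Igf2bp2 and near Sox17 each list divided a TAD of the other.

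**Figure D4:**
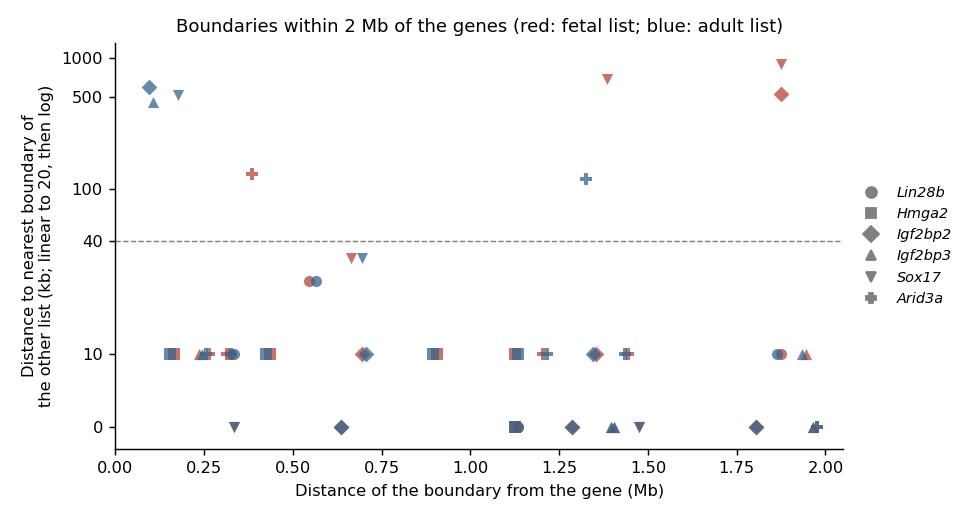
Each point is a boundary within 2 Mb of a gene, from the fetal list (red) or the adult list (blue), with the marker shape giving the gene. The horizontal axis is its distance from the gene in Mb and the vertical axis its distance in kb to the nearest boundary of the other list, linear to 20 kb and logarithmic above, with a dashed line at 40 kb. Of the 8 points above the line, the 3 nearest to a gene are adult boundaries at 95, 105 and 175 kb. These are the boundaries that divided the fetal TADs of Igf2bp2, Igf2bp3 and Sox17.

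The start sites can be placed on these maps by strand where the RefSeq promoter table, of build GRCm38.p6, holds the gene, which it did for 4 of the 6 members. Lin28b, Hmga2, Igf2bp2 and Igf2bp3 are all on the minus strand in it, so each starts at the upper end of its interval. The adult boundary near Igf2bp2 thus lay on the side of the start site, and the one near Igf2bp3 beyond the end of the gene. The 250 bases before each start are shown with every CpG in capitals. They set Igf2bp2 and Igf2bp3, whose TAD was divided, beside Lin28b and Hmga2, whose TAD was not. Sox17, whose TAD was also divided, and Arid3a are missing. Their GRCm38.p6 positions are chr16:22163300-22163549 (Igf2bp2), chr6:49214955-49215204 (Igf2bp3), chr10:45470202-45470451 (Lin28b) and chr10:120476470-120476719 (Hmga2), a different build from that of the TADs.
Igf2bp2: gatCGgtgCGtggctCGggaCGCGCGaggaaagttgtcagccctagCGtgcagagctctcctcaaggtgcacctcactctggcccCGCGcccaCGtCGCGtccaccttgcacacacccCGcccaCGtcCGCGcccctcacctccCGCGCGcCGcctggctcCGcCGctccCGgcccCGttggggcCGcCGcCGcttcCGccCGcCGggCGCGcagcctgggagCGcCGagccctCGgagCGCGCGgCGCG
Igf2bp3: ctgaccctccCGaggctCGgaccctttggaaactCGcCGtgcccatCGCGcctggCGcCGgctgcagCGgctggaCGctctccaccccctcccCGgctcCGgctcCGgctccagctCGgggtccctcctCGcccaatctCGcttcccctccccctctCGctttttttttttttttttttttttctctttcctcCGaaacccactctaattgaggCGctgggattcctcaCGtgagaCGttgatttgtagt
Lin28b: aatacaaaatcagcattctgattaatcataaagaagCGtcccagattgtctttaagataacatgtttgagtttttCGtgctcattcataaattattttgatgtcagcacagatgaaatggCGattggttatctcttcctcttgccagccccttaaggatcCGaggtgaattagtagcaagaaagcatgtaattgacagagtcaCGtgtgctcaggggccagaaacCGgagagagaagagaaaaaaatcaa
Hmga2: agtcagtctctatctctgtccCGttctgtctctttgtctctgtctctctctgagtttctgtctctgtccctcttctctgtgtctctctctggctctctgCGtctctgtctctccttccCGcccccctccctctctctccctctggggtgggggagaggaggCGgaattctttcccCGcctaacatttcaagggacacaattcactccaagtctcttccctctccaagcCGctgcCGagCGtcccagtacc

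Igf2bp2 had 40 CpG in this window, more than 98.7% of the 32851 promoters in the table, and 77.2% G and C. Igf2bp3 had 21 CpG, more than 83.7% of promoters, and 60.4% G and C. Hmga2 had 8 CpG and 56.4% G and C, and Lin28b 6 CpG and 39.2% G and C, where the median promoter had 6 CpG and 52.4%. Among these 4 genes, Igf2bp2 and Igf2bp3, whose TAD was divided, had more CpG than Hmga2 and Lin28b. Sox17, whose TAD was also divided, and Arid3a had no promoter to compare. A link between CpG and division was not tested. The palindrome CACGTG, the E-box letters read alike on both strands, occurred 1 time in Lin28b and 1 time in Igf2bp3, in neither of the other two, and in 6.02% of all promoters. It was chosen after the sequences were seen.

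The protein-coding genes next to each member, in the order of the GRCm38 gene table, give the surroundings. Lin28b stands between Bves and Hace1, Hmga2 between Llph and Msrb3, and Arid3a between Kiss1r and Wdr18. Igf2bp2 is followed by Tra2b, Etv5 and Dgkg on the side of its additional adult boundary, and preceded by Senp2, Liph and Tmem41a. Igf2bp3 is preceded by Malsu1, Gpnmb and Svs1 on the side of its additional adult boundary, and followed by Tra2a. Sox17 is preceded by Rp1 and Xkr4 on that side, and followed by Mrpl15 and Lypla1. Tra2a and Tra2b, next to Igf2bp3 and Igf2bp2 on the upper side of each, encode paralogous splicing factors, so both loci hold the same pair of gene families side by side. Which of these neighbours lie beyond a boundary was not analysed here, since their mm9 positions were not at hand.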

How the data were processed

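Hi-C was deposited by the authors as 1 list of TADs per cell type, each row holding a chromosome, a start and an end in base pairs and no score. The build mm9 and the tools HiC-Pro and GSNAP are named in the submitters' processing notes, without roles or versions. Not given in the sources used here are the TAD caller, its settings and any pooling of samples. Each could change where boundaries fall. Gene intervals were approximate mm9 positions supplied with the gene names, not read from an annotation. Starts were written counted from 1.

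Boundaries were the distinct TAD starts and ends, matched within 40 kb. Analyses used Python 3.11.15, numpy 2.4.6 and scipy 1.17.1. The functions were tested on simulated data. The members and gene list were chosen with earlier results of these data known, and the division of TADs was added after the member TADs were seen. All 6 members are named, with up to 3 protein-coding neighbours on each side. Other settings were tolerances of 0, 10, 20 and 100 kb, overlaps of 50 and 90%, windows of 1 and 3 Mb, each member left out, and other bin sets. Other genes of the fetal programme were not analysed here.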

Additional observations from a re-analysis of the deposited data

How the results depend on the processing

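No paired analysis was possible because each cell type had 1 list, which also meant that no replicate could be left out. Depth is unknown, and a boundary can be missing from a list for lack of contacts. Counts were taken to stay within 1.5 times, window shares within their interval, distances within 10 kb and bin shares within a counting interval that is very narrow for so many bins. By these rules 55 of 96 alternative values stayed.

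Among the members, identical positions moved every count that could move: 4 fetal and 2 adult TAD ends matched, 0 members matched at both ends, 1 fetal TAD was divided (that of Sox17, whose lower end is the start of the chromosome's first TAD), and 35.5% of boundaries in each list had a partner within 2 Mb of the genes. At 10 kb 2 of 6 members matched at both ends, and at 20 and 100 kb 3. An overlap of 50% made 4 of 6 members shared, and one of 90% 3. From 10 to 100 kb the same 3 fetal TADs stayed divided and 0 adult ones did. Widening the intervals by 50 kb left all 6 genes in 1 TAD of each list and gave median distances to the nearest boundary of 245 kb fetal and 115 kb adult. Gene midpoints gave 317.5 and 195 kb.

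Over bins, at tolerances of 0, 10, 20 and 100 kb, both ends matched for 9.02%, 38.7%, 53.7% and 69.6%. The fetal TAD was divided for 1.26%, 5.97%, 8.72% and 12.2%, and the adult TAD for 1.46%, 5.32%, 8.03% and 11.4%. Shared TADs were 88.2% at an overlap of 50% and 69.5% at 90%. In the order both ends matched, shared, fetal TAD divided and adult TAD divided, autosomes gave 63.3%, 75.4%, 11.6% and 10.1%, and the 4 chromosomes holding a member 64.6%, 76.3%, 9.82% and 11.3%. TADs of at least 200 kb gave 63.4%, 75.5%, 11.7% and 9.61%. Counting each TAD once gave 64.1% of fetal and 64.3% of adult TADs with both ends matched, 73.4% and 73.7% shared, and 6.82% and 5.71% divided. On the member chromosomes adult TADs were divided at more bins than fetal ones, the opposite of the order over all chromosomes. The share also changed order at identical positions. The cause was not tested.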
